A study of Mus musculus with 12 samples.

Results

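*Tmsb10* and *Tmsb4x*, which encode the beta thymosins, *Pfn1* (profilin 1), *Cfl1* (cofilin 1) and the cytoplasmic actin genes *Actb* and *Actg1* were followed through the RNA and ribosome footprint counts of mouse embryonic fibroblasts (MEFs). These 6 genes, of 20661 in the count files, were picked by name as abundant mRNAs of the actin monomer pool, some of them short. The higher translation efficiency (TE, footprints relative to RNA) of *Tmsb10* in ArfKO-shSCR MEFs was known when they were chosen. The values of *Tmsb10* in ArfKO-shSCR against WT-shSCR MEFs are therefore given as a description, without a test, and so are the levels of all 6 genes. Earlier results of these data were known when the members and the gene lists below were chosen. The tests of the other members and of the lists may therefore not be independent of that choice.

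The WT-shSCR group was WT MEFs with a lentiviral control hairpin, the group labelled WT-shARF was WT MEFs with a hairpin against ARF, and the ArfKO-shSCR group was *Arf*-/- MEFs with the control hairpin. Every group thus carried an shRNA vector, selected with puromycin per the methods, and all MEFs were at passage 4. In the knockout a neo cassette takes the place of exon 1β of *Cdkn2a*, so INK4A, the other product of that gene, is left in place. The knockout strain is B6.129X1-Cdkn2atm1Cjs/KaiJ, while the WT MEFs are C57BL/6J in the labels and B6129SF2/J in the methods, so genotype and strain background cannot be told apart. Each group had 2 replicates in each assay, 12 libraries in all, and nothing in the labels says that replicates were separate cultures, so p-values measure only the spread between these samples. Both comparisons with WT-shSCR MEFs share the WT-shSCR libraries, and their values are given side by side.

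Actin exists in cells as single molecules (monomers) and as filaments. Beta thymosins hold monomers out of filaments, profilin loads monomers onto growing filament ends, and cofilin severs old filaments and returns monomers to the pool. The pool also acts on transcription, because free monomers keep the MRTF coactivators away from serum response factor (SRF), whose targets include actin genes.

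All 6 genes were placed on GRCm38 (mm10) through the GENCODE M21 annotation. *Tmsb10* lies on the minus strand at chr6:72957347-72958748 and *Tmsb4x* on the minus strand at chrX:167207093-167209315. *Pfn1* (chr11:70651850-70654644) and *Actg1* (chr11:120345690-120348542) are on the minus strand of chromosome 11, *Actb* (chr5:142903115-142906754) on the minus strand of chromosome 5, and *Cfl1* (chr19:5490455-5495201) on the plus strand of chromosome 19. The coding sequences, to which the counts refer, are 135 nt for each thymosin, 423 nt for *Pfn1*, 501 nt for *Cfl1* and 1128 nt for each actin.

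The thymosin coding sequences are shown because the reads that separate these paralogs must come from 135 nt each. They are printed 5′ to 3′, with the bases at which the genes differ in capitals. Each was spliced from the exons at chr6:72957618-72958012 (*Tmsb10*) and chrX:167207501-167208036 (*Tmsb4x*), both on the minus strand, and comes from the GENCODE M21 transcripts.
Tmsb10: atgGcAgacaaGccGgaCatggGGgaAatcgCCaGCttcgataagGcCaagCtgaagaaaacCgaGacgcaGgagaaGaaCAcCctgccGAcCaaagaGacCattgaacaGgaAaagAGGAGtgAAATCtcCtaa
Tmsb4x: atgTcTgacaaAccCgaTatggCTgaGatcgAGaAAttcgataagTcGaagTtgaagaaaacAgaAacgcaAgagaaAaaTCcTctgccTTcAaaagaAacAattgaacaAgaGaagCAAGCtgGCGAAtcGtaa
The pair differed at 40 of 135 positions (70.4% identity), and the longest stretch shared without a difference was 10 nt. *Actb* and *Actg1* differed at 128 of 1128 positions (88.7% identity), with a longest shared stretch of 62 nt, which is longer than the 17 to 34 nt RNA fragments of the RNAseq libraries. Footprints were made with RNase T1, which cuts after G. G made up 28.1% of the *Tmsb10* and 22.2% of the *Tmsb4x* coding sequence, and 26.9% to 29.1% of the other 4.

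Alignments that were not unique were left out of the counts, so windows that a gene shares with another could lose reads. Of the 28 nt windows of their coding sequences, all of those of the thymosins and *Pfn1* occurred in no other gene of the count files, as did 87.7% for *Actg1*, 81.0% for *Cfl1* and 62.5% for *Actb*. Against all annotated genes, pseudogenes included, *Tmsb4x* kept every window, and the shares were 97.2% for *Pfn1*, 50.8% for *Actb* and 28.3% for *Cfl1*, and 0.0% for *Tmsb10* and *Actg1*. Every window of *Tmsb10* was found in at least 1 of 9 other annotated genes, 8 of them pseudogenes, and every window of *Actg1* in at least 1 of 39. *Cfl1* shared 90 windows with *Snx32*, an overlapping gene on the opposite strand. *Tmsb10* still had 443 to 3335 reads and *Actg1* 7636 to 65199 reads in each of the 12 libraries, so shared windows did give counts. How reads shared with pseudogenes were handled is not given in the sources used here, and the levels of these 2 genes, of *Cfl1* and of *Actb* are uncertain for that reason.

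**Figure D1:**
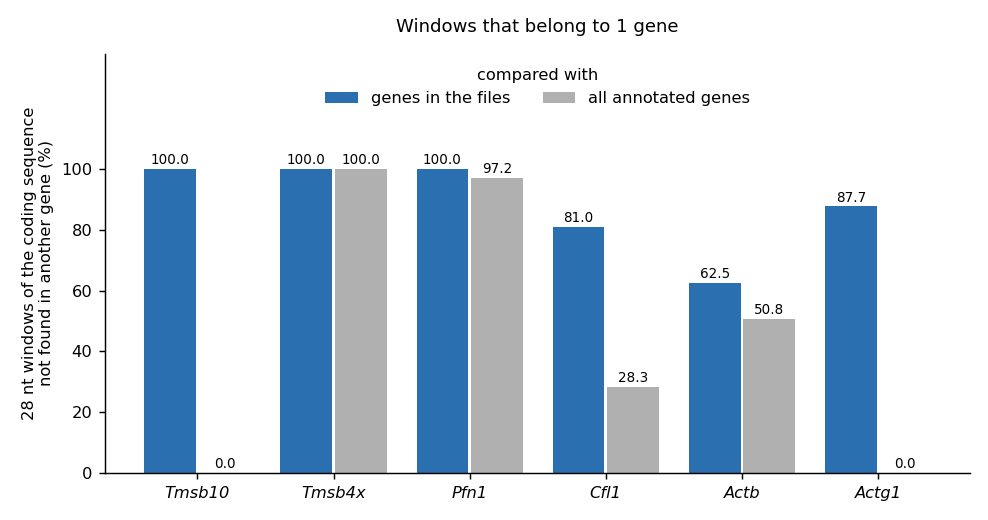
Share of the 28 nt windows of each coding sequence that occur in no other gene, in percent, against the genes of the count files (blue) and against all annotated genes, pseudogenes included (grey). Against all annotated genes the bars of *Tmsb10* and *Actg1* are at 0.0%, while *Tmsb4x* keeps every window and *Pfn1* 97.2%.

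An mRNA of the 5′-TOP class starts with C and an unbroken run of pyrimidines. Of 22 annotated protein-coding transcripts of the 6 genes, 1 started with C and at least 4 further pyrimidines, against 2.14% of 58797 protein-coding transcripts and 12.95% of the 224 transcripts of the study's listed 5′-TOP genes. The first 20 bases of that transcript (chrX:167209130-167209149) and of the first annotated transcript of each thymosin (chr6:72958729-72958748 and chrX:167209296-167209315, all minus strand) are shown with an unbroken pyrimidine start in capitals.
Tmsb4x-203: CTTCTgagcagatcagactc
Tmsb4x-201: ggtgaatggggatgtggggg
Tmsb10-201: acaccacacatacattcaac
Annotated starts need not be the starts used in these MEFs. In RefSeq promoter windows of GRCm38.p6, 250 bases before to 50 bases after a start, the CArG box, which SRF binds, was searched on both strands as CC, 6 bases of A or T, and GG. It was found in 1 of 7 windows of 5 of the genes and in 535 of all 32841 windows (1.63%). The window that held it belonged to *Actg1*, at chr11:120348566-120348595 on the minus strand, with the match in capitals.
Actg1: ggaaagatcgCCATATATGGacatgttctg
A match is a description of the sequence and not a bound site. No window of *Actb* was used here.

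Each RNAseq library held 1578627 to 3989908 reads on genes and each ribosome profiling library 2544319 to 5157572, and the 6 genes took 1.76% to 2.00% of the former and 3.17% to 3.66% of the latter. RNA of *Cdkn2a*, the targeted gene, stood at 42.2 to 45.1 CPM (read counts scaled to library size with TMM factors) in WT-shSCR MEFs. It stood at 27.8 to 32.4 CPM in ArfKO-shSCR MEFs, but at 647.7 to 672.0 CPM in the libraries labelled WT-shARF. That RNA level goes against the label, so those libraries are named by their label throughout. The paper's immunoblot, by contrast, shows a knockdown of ARF protein. The count of *Cdkn2a* does not separate ARF from INK4A, and the origin of these reads was not tested. All 8 fibroblast markers were detected in every group, with summed RNA of 21450 to 24903 CPM in WT-shSCR MEFs, 22246 to 22424 CPM in WT-shARF-labelled libraries and 16318 to 17558 CPM in ArfKO-shSCR MEFs, which lay below both other groups. The markers did not fall as a set. In RNA of ArfKO-shSCR against WT-shSCR MEFs edgeR called 2 of the 8 higher and 1 lower, with a median log2 change of -0.06. The summed RNA of 13 macrophage markers was 538.8 to 554.6 CPM in WT-shSCR MEFs, 195.3 to 283.1 CPM in WT-shARF-labelled libraries and 58.2 to 81.6 CPM in ArfKO-shSCR MEFs, where *Aif1* had no reads. The 10 epithelial and mesothelial markers summed to 65.8 to 101.8 CPM in both WT groups and to 174.6 to 192.6 CPM in ArfKO-shSCR MEFs, and 6 endothelial markers stayed at 24.2 to 40.5 CPM. Fewer cells of a type and less RNA per cell cannot be told apart in such bulk samples.

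All 6 mRNAs were abundant in WT-shSCR MEFs, and most of all those of the actins. Per kb of coding sequence, the scale on which genes are compared here, RNA was highest for *Actb* (10720 ± 539 CPM per kb, SD, n = 2), which ranked 2 of 20425 genes with a length. *Actg1* followed at 4242 ± 211, *Tmsb4x* at 3841 ± 419, *Tmsb10* at 2585 ± 244, *Cfl1* at 2506 ± 175 and *Pfn1* at 2116 ± 154 CPM per kb. *Actg1* and *Tmsb4x* stood within their joint spread, as did *Tmsb10* and *Cfl1*, while *Cfl1* and *Pfn1* were further apart than theirs. Per kb of windows not shared with another gene of the files, a scale added after the data were seen, *Actb* had 17575 ± 883, *Actg1* 4954 ± 246, *Tmsb4x* 4801 ± 523, *Cfl1* 3269 ± 228, *Tmsb10* 3231 ± 305 and *Pfn1* 2261 ± 165 CPM per kb. *Cfl1* and *Tmsb10* stood within their joint spread on this scale as well, so their order is not settled. The scale divides all reads of a gene by its unshared windows, as if shared windows gave none.

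Footprints ranked these genes higher still. Per kb, *Actb* had the most footprints of all 20425 genes in WT-shSCR MEFs (14988 ± 993 CPM per kb), *Actg1* ranked 5, *Tmsb4x* 7, *Tmsb10* 14, *Cfl1* 21 and *Pfn1* 23. The log2 TE of the group means lay above the median of 11159 genes (-0.07) for all 6 genes. It was 1.24 for *Actg1*, 0.81 for *Tmsb4x*, 0.75 for *Tmsb10*, 0.64 for *Pfn1*, 0.48 for *Actb* and 0.43 for *Cfl1*, percentiles 92.4 to 71.3. *Actg1* thus had a higher TE than *Actb* in every group, and in each library of RNAseq *Actb* had 2.35 to 2.89 reads per read of *Actg1*, against 1.46 to 1.56 in ribosome profiling. How reads shared between the actins or with pseudogenes entered these ratios is not known.

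**Figure D2:**
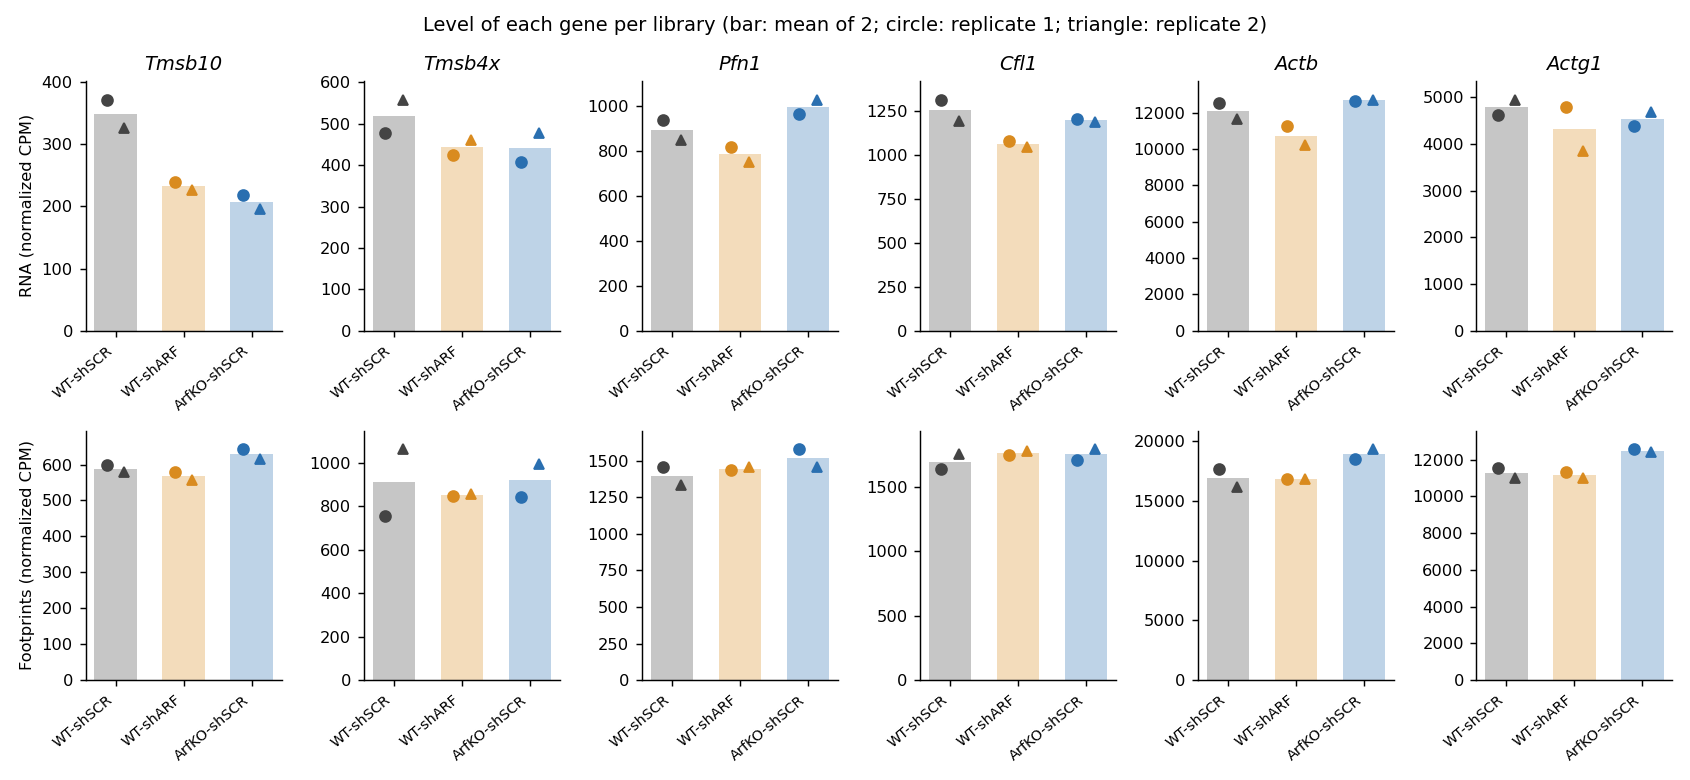
RNA (upper panels) and footprint (lower panels) level of each gene in normalized CPM, with every axis starting at 0. Bars are means of 2 replicates, circles replicate 1 and triangles replicate 2. *Tmsb10* RNA stood at 325.6 to 372.2 CPM in WT-shSCR MEFs and at 195.2 to 238.9 CPM in the other 4 libraries, while its footprints stayed between 557.0 and 643.2 CPM.

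The design asks which RNAs, footprints and TEs differ after loss of ARF. For RNA in ArfKO-shSCR against WT-shSCR MEFs, the quasi-likelihood test of edgeR (p adjusted after Benjamini and Hochberg, threshold 0.05) called 7.93% of 10659 genes. Among the 5 members other than *Tmsb10* it called 0, as did an unadjusted p under 0.05 and DESeq2. In WT-shARF-labelled libraries against WT-shSCR it called 7.28% of 10503 genes and 1 of 6 members, *Tmsb10*. In ArfKO-shSCR MEFs against WT-shARF-labelled libraries it called 2.57% of 10632 genes and 0 of 6 members, with 2 at an unadjusted p under 0.05 and 0 by DESeq2. The median RNA change of the 6 members was a log2 of -0.07, -0.21 and 0.12 in these comparisons, where the medians of all genes tested lay within 0.01 of 0.

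For footprints, 18.5% of 10737 genes were called in ArfKO-shSCR against WT-shSCR MEFs and 2 of the 5 members other than *Tmsb10*, the actins. In WT-shARF-labelled libraries against WT-shSCR it was 11.1% of 10307 genes and 0 of 6 members, which was also 0 at an unadjusted p under 0.05 and 0 by DESeq2. In ArfKO-shSCR MEFs against WT-shARF-labelled libraries it was 8.23% of 10941 genes and 2 of 6 members, again the actins. The members' median footprint changes were log2 values of 0.12, -0.01 and 0.13, beside medians within 0.01 of 0 for all genes.

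For TE, 0.194% of 11314 genes were called in ArfKO-shSCR against WT-shSCR MEFs. Of the 5 members other than *Tmsb10* edgeR called 0, with 0 at an unadjusted p under 0.05 and 0 by DESeq2. In WT-shARF-labelled libraries 0.0354% of 11289 genes were called and 0 of 6 members, with 2 at an unadjusted p under 0.05, and DESeq2 called 1 member, *Tmsb10*. In ArfKO-shSCR MEFs against WT-shARF-labelled libraries 0.043% of 11632 genes were called and 0 of 6 members, with 2 at an unadjusted p under 0.05 and 0 by DESeq2. The members' median TE changes were log2 values of 0.15, 0.22 and 0.01, beside -0.04, 0.01 and 0.00 for all genes.

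**Figure D3:**
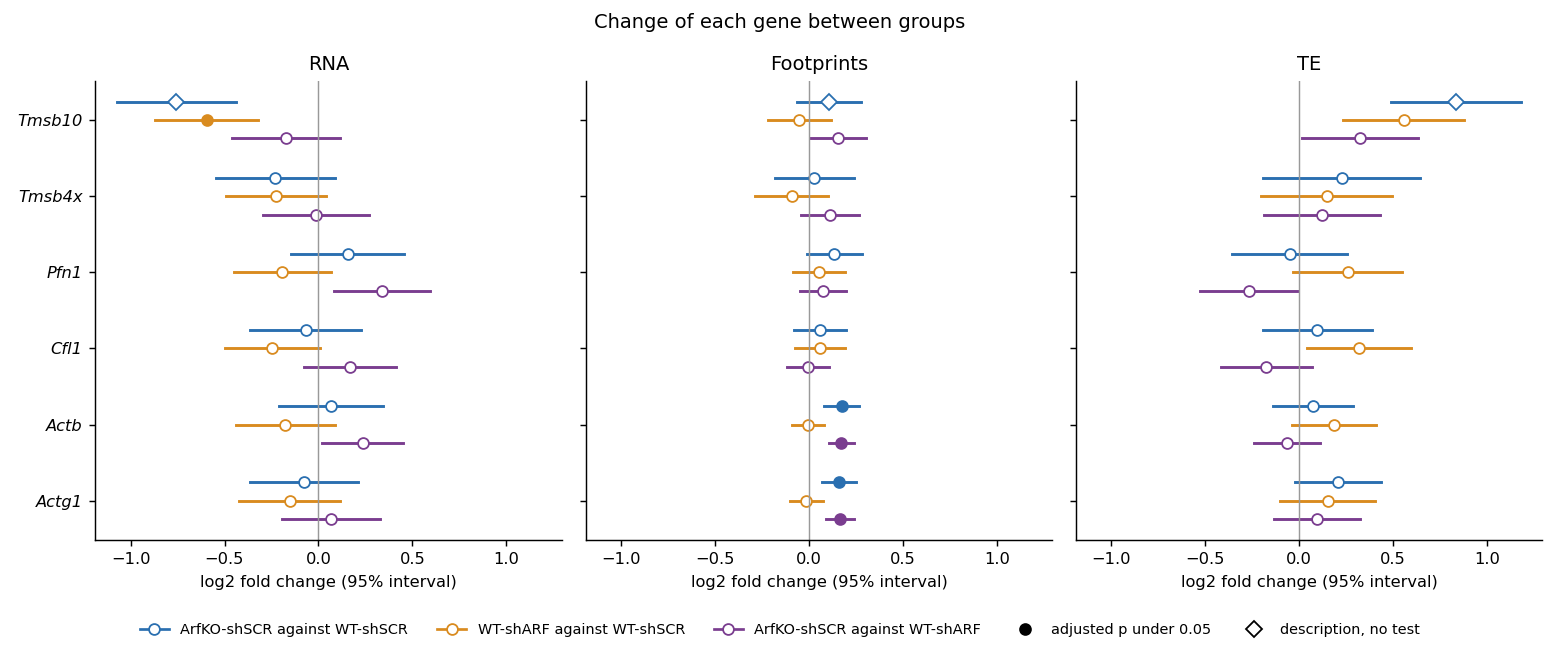
Log2 fold change of RNA, footprints and TE of each gene in 3 comparisons, with 95% intervals from edgeR. Filled circles passed an adjusted p of 0.05, open circles did not, and diamonds mark the *Tmsb10* values given as a description. Filled points appear for *Tmsb10* RNA in WT-shARF-labelled libraries (-0.59) and for the footprints of *Actb* and *Actg1* in both comparisons with ArfKO-shSCR MEFs (0.16 to 0.17).

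*Tmsb10* was the member whose RNA and footprints parted most. Its RNA was 372.2 and 325.6 CPM in the WT-shSCR replicates, 238.9 and 226.7 CPM in WT-shARF-labelled libraries and 219.0 and 195.2 CPM in the ArfKO-shSCR replicates. No 2 groups overlapped, and both WT-shSCR libraries were the highest. With 2 libraries per group the smallest exact permutation p is 0.33, so a lack of overlap is common and is only a description, here and below. The share of all genes without overlap was not counted. Its footprints were 597.7 and 579.3, 578.4 and 557.0, and 643.2 and 615.6 CPM in the same order. The footprint groups lay close together, with ArfKO-shSCR highest and WT-shARF-labelled libraries lowest.

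In ArfKO-shSCR against WT-shSCR MEFs the log2 change of *Tmsb10* was -0.76 (standard error 0.15) for RNA, 0.11 (standard error 0.08) for footprints and 0.83 (standard error 0.17) for TE, a TE 1.78-fold that of WT-shSCR. These values are the ones that guided the choice and are not tested here. In WT-shARF-labelled libraries, *Tmsb10* RNA fell by 0.59 on the log2 scale (standard error 0.13, adjusted p = 0.0051, edgeR). Footprints of *Tmsb10* did not pass the test there (log2 change -0.05, 95% interval -0.22 to 0.12). The TE change was 0.56 (95% interval 0.23 to 0.88, adjusted p = 0.30 by edgeR and 0.017 by DESeq2). These tests use the WT-shSCR libraries that also entered the choice of *Tmsb10*, so they are not independent of it. Between ArfKO-shSCR MEFs and WT-shARF-labelled libraries the log2 change was -0.17 (95% interval -0.46 to 0.11) for RNA and 0.32 (95% interval 0.01 to 0.63) for TE.

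The log2 TE of *Tmsb10* per replicate was 0.68 and 0.83 in WT-shSCR MEFs, 1.28 and 1.30 in WT-shARF-labelled libraries and 1.55 and 1.66 in ArfKO-shSCR MEFs. The 3 groups did not overlap. The groups stood in the same order for the summed macrophage markers as for *Tmsb10* RNA, and their part in it was not tested. Without WT-shSCR replicate 1 the RNA change in ArfKO-shSCR MEFs was -0.65 and in WT-shARF-labelled libraries -0.48 (adjusted p = 0.059, edgeR). The RNA call of *Tmsb10* in WT-shARF-labelled libraries was also lost without WT-shARF replicate 1 (adjusted p = 0.051, edgeR) or replicate 2 (adjusted p = 0.14, edgeR).

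**Figure D4:**
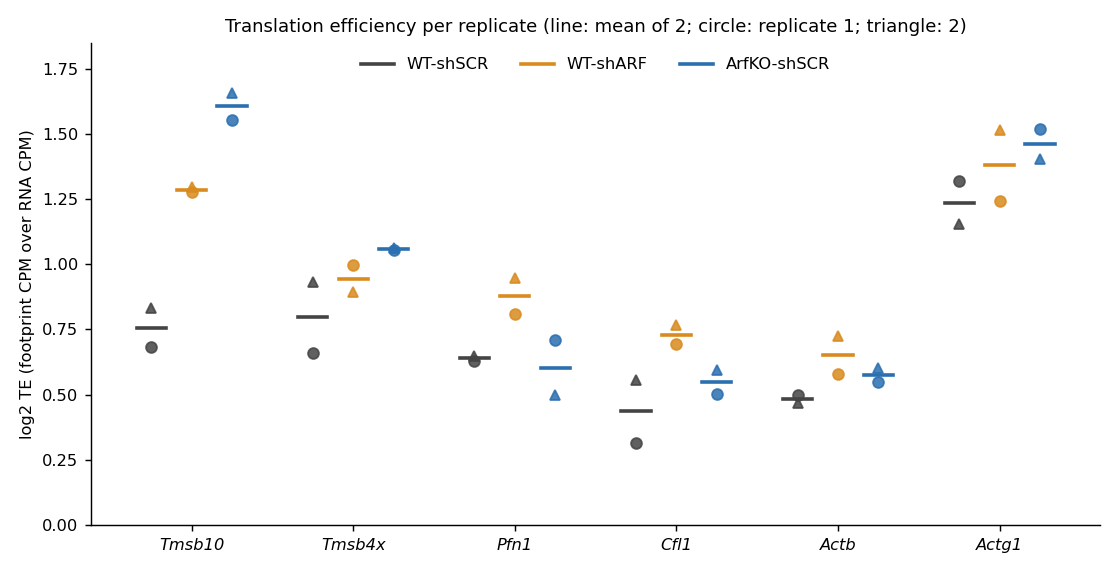
Log2 TE of each gene per replicate (footprint CPM over RNA CPM), with circles for replicate 1, triangles for replicate 2 and lines for means of 2. *Tmsb10* ran from 0.68 in a WT-shSCR replicate to 1.66 in an ArfKO-shSCR replicate, while *Tmsb4x* stayed between 0.66 and 1.06, *Pfn1* between 0.50 and 0.95 and *Cfl1* between 0.32 and 0.77.

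*Tmsb4x*, the other beta thymosin of these cells, showed no called change. Its RNA was 478.6 and 558.5 CPM in WT-shSCR MEFs, 425.5 and 461.8 CPM in WT-shARF-labelled libraries and 407.1 and 477.2 CPM in ArfKO-shSCR MEFs. Both WT-shSCR libraries were the highest, by a small margin. Its footprints were 756.8 and 1065, 848.2 and 858.8, and 845.2 and 995.9 CPM, and all groups overlapped within the wide spread of WT-shSCR. The RNA change was a log2 of -0.23 (95% interval -0.55 to 0.09) in ArfKO-shSCR MEFs and -0.23 (95% interval -0.49 to 0.04) in WT-shARF-labelled libraries. The TE change was 0.23 (95% interval -0.19 to 0.64) and 0.15 (95% interval -0.20 to 0.50). The intervals of TE are wide enough to hold a change as small as none or larger than 0.4. Its footprint change in WT-shARF-labelled libraries was -0.09 (95% interval -0.28 to 0.10), but -0.32 without WT-shSCR replicate 1 (adjusted p = 0.0013, edgeR) and 0.18 without WT-shSCR replicate 2.

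The ratio of the thymosins within a library does not depend on the scaling. In RNAseq, *Tmsb10* had 0.78 and 0.58 reads per read of *Tmsb4x* in WT-shSCR MEFs, 0.56 and 0.49 in WT-shARF-labelled libraries and 0.54 and 0.41 in ArfKO-shSCR MEFs. Both WT-shSCR libraries stood above the other 4, the lower of them by a narrow margin. In ribosome profiling the ratio was 0.79 and 0.54, 0.68 and 0.65, and 0.76 and 0.62, and the groups overlapped. The lowest count behind these ratios was 443 reads of *Tmsb10*, for which counting error alone is 4.75%.

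*Pfn1* encodes profilin 1, the main profilin outside the nervous system. Its RNA was 941.3 and 849.1 CPM in WT-shSCR MEFs, 820.3 and 754.0 CPM in WT-shARF-labelled libraries and 966.6 and 1031 CPM in ArfKO-shSCR MEFs. The groups did not overlap, and WT-shARF-labelled libraries were lowest. Footprints were 1457 and 1331, 1436 and 1453, and 1580 and 1456 CPM, and both groups overlapped with WT-shSCR. The log2 RNA change was 0.16 (95% interval -0.14 to 0.46) in ArfKO-shSCR MEFs and -0.19 (95% interval -0.45 to 0.06) in WT-shARF-labelled libraries, and neither passed the test. Set against each other, ArfKO-shSCR MEFs differed from WT-shARF-labelled libraries by a log2 of 0.34 (95% interval 0.08 to 0.59), which did not pass the adjustment (adjusted p = 0.17, edgeR). The TE change of *Pfn1* was -0.05 (95% interval -0.36 to 0.26) and 0.26 (95% interval -0.03 to 0.55).

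*Cfl1* encodes cofilin 1, the cofilin of non-muscle cells. Its RNA was 1317 and 1194 CPM in WT-shSCR MEFs, 1082 and 1047 CPM in WT-shARF-labelled libraries and 1207 and 1190 CPM in ArfKO-shSCR MEFs. The libraries labelled WT-shARF were lowest, and the other groups overlapped. Footprints were 1639 and 1754, 1749 and 1783, and 1711 and 1795 CPM, a span of 1.10-fold from the lowest to the highest, and the groups overlapped. The TE change was 0.32 in WT-shARF-labelled libraries (95% interval 0.04 to 0.59, adjusted p = 0.69, edgeR), with both replicates above both WT-shSCR replicates, and 0.10 in ArfKO-shSCR MEFs (95% interval -0.19 to 0.39). The RNA change was -0.24 (95% interval -0.50 to 0.01) and -0.07 (95% interval -0.37 to 0.23).

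*Actb* encodes cytoplasmic beta actin. Its footprints rose in ArfKO-shSCR MEFs. They were 17699 and 16114 CPM in WT-shSCR MEFs, 16830 and 16856 CPM in WT-shARF-labelled libraries and 18505 and 19331 CPM in ArfKO-shSCR MEFs. Both ArfKO-shSCR libraries were above the other 4, and the 2 WT groups overlapped. The log2 change was 0.17 against WT-shSCR (standard error 0.04, adjusted p = 0.0050, edgeR), or 1.13-fold, and -0.00 (95% interval -0.09 to 0.08) in WT-shARF-labelled libraries. RNA was 12521 and 11662, 11262 and 10213, and 12664 and 12733 CPM, with a log2 change of 0.07 (95% interval -0.21 to 0.35) in ArfKO-shSCR MEFs and -0.18 (95% interval -0.44 to 0.09) in WT-shARF-labelled libraries. The groups of RNA did not overlap, with WT-shARF-labelled libraries lowest. The TE change was 0.07 (95% interval -0.14 to 0.29) and 0.18 (95% interval -0.04 to 0.41).

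*Actg1* encodes cytoplasmic gamma actin, and its footprints moved like those of *Actb*. They were 11528 and 11016 CPM in WT-shSCR MEFs, 11348 and 10980 CPM in WT-shARF-labelled libraries and 12575 and 12395 CPM in ArfKO-shSCR MEFs. Again both ArfKO-shSCR libraries were above the other 4. The log2 change was 0.16 (standard error 0.05, adjusted p = 0.011, edgeR), or 1.12-fold, against WT-shSCR, and -0.01 (95% interval -0.10 to 0.07) in WT-shARF-labelled libraries. RNA was 4617 and 4953, 4793 and 3843, and 4389 and 4690 CPM, and all groups overlapped. The log2 RNA change was -0.08 (95% interval -0.36 to 0.21) and -0.15 (95% interval -0.42 to 0.12), and the TE change 0.21 (95% interval -0.02 to 0.43) and 0.15 (95% interval -0.10 to 0.41).

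Between ArfKO-shSCR MEFs and WT-shARF-labelled libraries the footprints of *Actb* differed by a log2 of 0.17 (standard error 0.03, adjusted p = 0.0019, edgeR) and those of *Actg1* by 0.17 (standard error 0.03, adjusted p = 0.0053, edgeR). RNA and TE of the actins did not pass the test in that comparison. The calls in ArfKO-shSCR against WT-shSCR MEFs were lost without WT-shSCR replicate 1 or 2 (log2 0.11 to 0.26 for *Actb* and 0.13 to 0.20 for *Actg1*), and that of *Actb* was lost with DESeq2 (adjusted p = 0.052). The calls against WT-shARF-labelled libraries were lost without either WT-shARF replicate, with log2 values of 0.14 to 0.19.

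**Figure D5:**
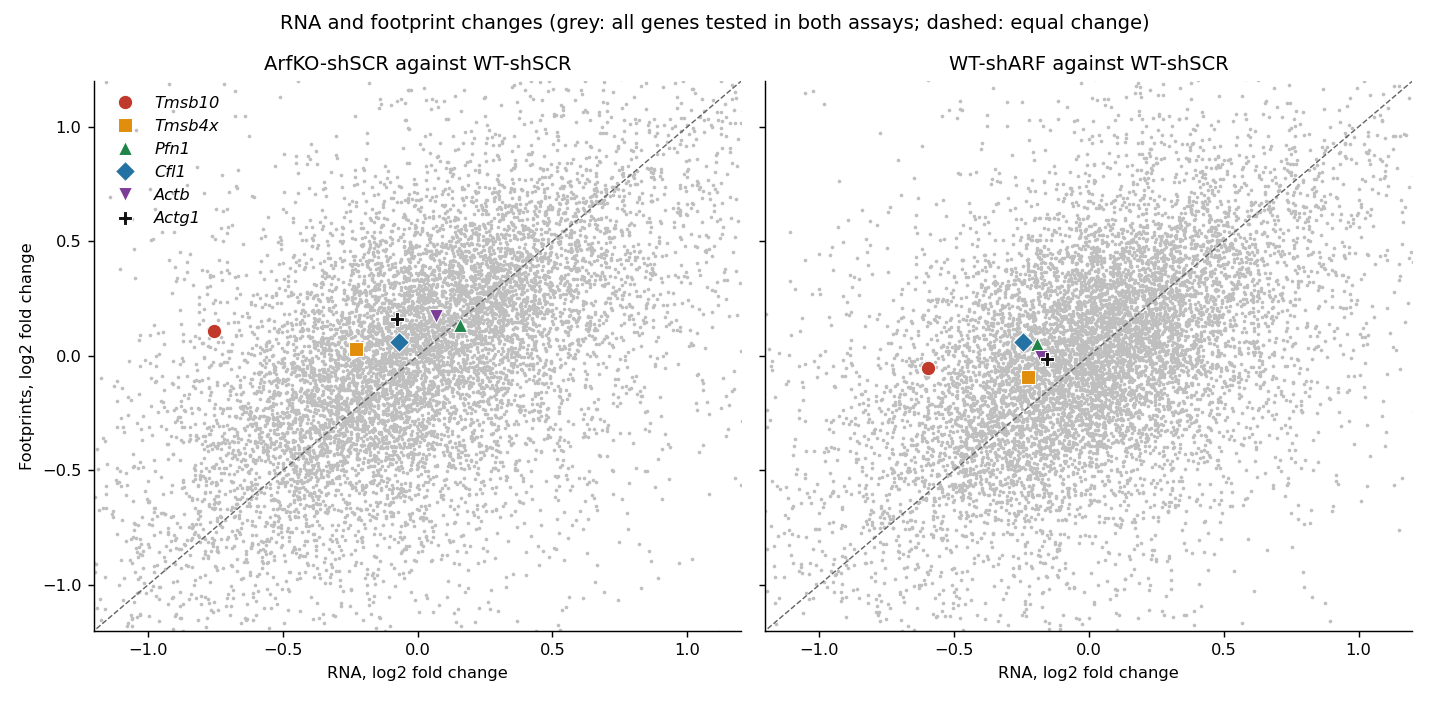
Log2 RNA change (horizontal) against log2 footprint change (vertical) in ArfKO-shSCR MEFs (left, 10012 genes tested in both assays) and in WT-shARF-labelled libraries (right, 9775 genes), each against WT-shSCR. Grey points are all genes within the axes, coloured symbols the members, and the dashed line marks equal change. *Tmsb10* lies to the left of the line at an RNA change of -0.76 and a footprint change of 0.11 (left) and at -0.59 and -0.05 (right), and the other members lie near 0 on both axes.

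Other genes of the monomer side were described through a list of 28 further actins, profilins, cofilins, thymosins, monomer binding and turnover proteins. In RNA of ArfKO-shSCR MEFs 0 of 21 tested rose and 4 fell, where 7.93% of all genes were called, with a median log2 change of -0.32 against -0.00 for all genes. *Coro1a*, an actin binding coronin of blood cells, fell by 1.78 on the log2 scale (adjusted p = 0.0014, edgeR), and *Acta1*, skeletal muscle actin, fell by 1.25 (adjusted p = 0.00073, edgeR). Footprints of the list showed 1 rise, that of the smooth muscle actin gene *Acta2* (log2 0.15, adjusted p = 0.017, edgeR), and 6 falls of 22 (18.5% of all genes were called), led by *Coro1a* (-2.30) and *Pfn2* (-1.06), the neuronal profilin. In WT-shARF-labelled libraries 6 of 21 fell in RNA (7.28% of all genes were called) and 7 of 21 in footprints (11.1% of all genes), and 0 rose in either. *Cfl2*, the muscle cofilin, led both, with a log2 change of -1.04 in RNA (adjusted p = 0.00095, edgeR) and -1.30 in footprints (adjusted p = 2.0e-08, edgeR), and *Gsn*, the severing protein gelsolin, fell by 0.91 in RNA (adjusted p = 1.2e-05, edgeR). The summed macrophage markers moved with the groups as given above, and their part in the falls of *Coro1a* was not tested.

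Set against each other, ArfKO-shSCR MEFs had more RNA of *Cfl2* (log2 1.13, adjusted p = 0.0061, edgeR) and *Acta2* (log2 0.58, adjusted p = 0.011, edgeR) than WT-shARF-labelled libraries, and less of *Ssh1*, a cofilin phosphatase (log2 -1.08, adjusted p = 0.044, edgeR). Those 3 were the calls among 21, where 2.57% of all genes were called. Footprints of the list gave 5 higher and 4 lower of 21 (8.23% of all genes), with *Cfl2* at 1.18 and *Acta2* at 0.58 above 0 and *Coro1a* at -1.87 and *Ssh1* at -0.84 below. TE gave 0 calls in all 3 comparisons by edgeR and by DESeq2, with 0, 1 and 0 genes at an unadjusted p under 0.05.

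Close relatives of the members were led by the smooth muscle actins. *Acta2* reached 10727 ± 201 CPM RNA in WT-shSCR MEFs (SD, n = 2), 7029 ± 731 CPM in WT-shARF-labelled libraries and 10527 ± 42.9 CPM in ArfKO-shSCR MEFs. *Acta2* RNA fell by 0.62 on the log2 scale in WT-shARF-labelled libraries (adjusted p = 0.0026, edgeR), as did its footprints by 0.44 (adjusted p = 1.5e-08, edgeR). *Actg2* fell there by 0.41 in RNA (adjusted p = 0.047, edgeR) and by 0.37 in footprints (adjusted p = 0.0011, edgeR). *Dstn*, the third member of the cofilin family, had 531.9 ± 42.2 CPM RNA in WT-shSCR MEFs, and its footprints fell by 0.50 in WT-shARF-labelled libraries (adjusted p = 5.3e-06, edgeR). Of the remaining beta thymosin genes, *Tmsb15a* had 1 read in all 12 libraries and *Tmsb15b1*, *Tmsb15b2* and *Tmsb15l* had 0, and *Pfn3* and *Pfn4* had 5 and 8 reads.

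A second list held 33 genes of filament nucleation, elongation and capping, 30 of them in the files. In RNA 0 rose and 4 fell of 29 tested in ArfKO-shSCR MEFs (7.93% of all genes were called), and 0 rose and 4 fell of 30 in WT-shARF-labelled libraries (7.28% of all genes), with medians of -0.15 and -0.06. *Enah*, which speeds filament elongation, fell in both (log2 -0.75, adjusted p = 0.038, and log2 -0.64, adjusted p = 0.022, edgeR). *Fmnl1*, a formin of blood cells, fell in both as well (log2 -2.95, adjusted p = 0.0093, and log2 -1.86, adjusted p = 0.026, edgeR), from 12.9 ± 1.07 CPM in WT-shSCR MEFs. For RNA of this list DESeq2 called 2 genes in ArfKO-shSCR MEFs and 0 in WT-shARF-labelled libraries, so it made neither call there. In footprints of ArfKO-shSCR MEFs 1 rose and 5 fell of 30, a share near the 18.5% of all genes. *Actr3*, a subunit of the Arp2/3 complex, rose by a log2 of 0.25 (adjusted p = 0.047, edgeR), and *Capg*, a capping protein of macrophages, fell by 1.13 (adjusted p = 2.0e-07, edgeR). In WT-shARF-labelled libraries 0 rose and 7 fell in footprints (11.1% of all genes were called), with *Daam1*, a formin, at -0.86 and *Enah* at -0.67. The part of the macrophage markers in *Fmnl1* and *Capg* was not tested. The comparison of ArfKO-shSCR MEFs with WT-shARF-labelled libraries gave 0 calls of 29 in RNA (4 at an unadjusted p under 0.05, 0 by DESeq2) and 2 higher and 2 lower of 30 in footprints (8.23% of all genes). *Vasp* (0.48) and *Actr3* (0.25) were higher and *Fmnl1* (-3.22) and *Capg* (-0.77) lower.

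MRTF and SRF targets and regulators, genes that respond to the monomer pool, were listed as 23 symbols, 19 of them in the files and tested. In RNA of ArfKO-shSCR MEFs 0 rose and 1 fell, *Tpm1* (log2 -0.48, adjusted p = 0.0498, edgeR), a tropomyosin gene, and this call was not made by DESeq2, which called 0. That 1 call of 19 is no more than the 7.93% of all genes. In WT-shARF-labelled libraries 0 rose and 5 fell (7.28% of all genes were called), with a median of -0.26. *Tgfb1i1*, the focal adhesion protein HIC-5, fell by 1.40 (adjusted p = 5.7e-07, edgeR) and *Cnn1*, calponin of smooth muscle, by 1.07 (adjusted p = 1.1e-06, edgeR). In footprints of those libraries, where 11.1% of all genes were called, 8 fell and 1 rose, *Tagln2*, a transgelin (log2 0.60, adjusted p = 1.2e-07, edgeR). In ArfKO-shSCR against WT-shSCR MEFs 3 rose and 4 fell in footprints, where 18.5% of all genes were called. *Tagln2* (0.40) and *Fhl1* (0.28) rose most, and *Ctgf* and *Itga5* fell most, both by a log2 of 0.35. Against WT-shARF-labelled libraries, ArfKO-shSCR MEFs had 8 higher and 2 lower in footprints (8.23% of all genes were called) and 2 higher, *Tgfb1i1* (1.15) and *Cnn1* (0.95), and 0 lower in RNA (2.57% of all genes). TE gave 0 calls of 19 in each comparison by edgeR and DESeq2, with 2 genes at an unadjusted p under 0.05 in each.

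Of the 6 members, 3 have a coding sequence under 500 nt (both thymosins and *Pfn1*). All genes under that length were counted, with these 3 included and ribosomal proteins left out. In TE 1 of 810 tested rose and 1 fell in ArfKO-shSCR against WT-shSCR MEFs. The gene that rose was *Tmsb10* itself, whose value there guided the choice and is a description. The median change was 0.09 against -0.04 for all genes. In WT-shARF-labelled libraries 0 of 818 were called, with a median of 0.18 against 0.01. The most abundant in RNA were *Lgals1* (galectin 1), *S100a6*, a calcium binding protein, and *Rprml*, a relative of reprimo. *S100a6* fell in RNA in ArfKO-shSCR MEFs (log2 -0.54, adjusted p = 0.024, edgeR) and in WT-shARF-labelled libraries (log2 -0.70, adjusted p = 0.00050, edgeR), and its footprints fell as well (log2 -0.44, adjusted p = 2.1e-06, and log2 -0.53, adjusted p = 3.5e-08, edgeR). *Lgals1* footprints rose by a log2 of 0.21 in ArfKO-shSCR MEFs (adjusted p = 0.022, edgeR). Its TE change in WT-shARF-labelled libraries was 0.50 and did not pass the adjustment (adjusted p = 0.20, edgeR). *Rprml* had no call, and its footprints were too few to be tested despite 1561 CPM of RNA in WT-shSCR MEFs. Whether those RNA reads come from its mRNA was not tested.

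The genes whose levels followed a member most closely were found by Pearson's r of log2 CPM, centred within each assay, over the 12 libraries and 2616 other genes with a mean of at least 50 CPM in both assays. For *Tmsb10* they were *Fth1* (0.92), *Edf1* (0.92) and *Ppil2* (0.91), and for *Tmsb4x* *Rnf19b* (0.85), *Pttg1ip* (0.82) and *Mcm3ap* (0.81). For *Pfn1* they were *Smarcc2* (0.89), *Obsl1* (0.89) and *Cacng1* (0.87), and for *Cfl1* *Lgals1* (0.87), *Sod2* (0.87) and *Psma7* (0.86). For *Actb* they were *Rtcb* (0.91), *Pgk1* (0.89) and *Prmt1* (0.89), and for *Actg1* *Pkp2* (0.81), *Tead1* (0.78) and *Unc45a* (0.76). The choice depended in part on the scaling. With RLE in place of TMM factors, *Gnb2l1* (0.88) replaced *Cacng1*, *Kdelr1* (0.87) replaced *Sod2* and *Bag6* (0.77) replaced *Unc45a*. Among the members themselves *Actb* and *Pfn1* were closest (0.87), followed by *Actb* and *Actg1* (0.67), while *Tmsb10* and *Tmsb4x* had 0.35. These values describe 12 libraries of 3 groups that share depth and scaling, and no p is given for them.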

How the data were processed

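RNA and ribosome footprints were measured in MEFs of 3 groups with 2 replicates each. Per the methods and the submitters' processing notes, the authors clipped adapters, removed barcodes and molecular identifiers (UMI-tools, cutadapt), discarded rRNA and other noncoding RNA (Bowtie2), aligned to mm10 with TopHat and counted coding sequence reads with HTSeq. Each deposited file lists unnormalized counts, one value per gene. Removal of duplicates by identifier and a strand setting are not given in the sources used here. Alignments that were not unique (79.22% to 81.38% of RNAseq and 46.34% to 52.92% of ribosome profiling alignments) were left out by the counting.

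From these counts edgeR 4.0.16 (R 4.3.3) gave TMM factors and quasi-likelihood tests over all genes kept by filterByExpr, with Benjamini-Hochberg adjustment and a threshold of 0.05. RNA and footprint changes used the 4 libraries of a comparison, TE the interaction of assay and condition over 8. DESeq2 1.42.0 was an alternative. Standard errors are the log2 fold change over the root of F. Levels are TMM scaled CPM, and log2 TE per replicate is footprint over RNA CPM. The test was tried on simulated counts. With 2 replicates per group the smallest exact permutation p is 0.33.

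The members and gene lists were chosen with earlier results of these data known. Fold changes and tests of the authors' own were not used. Named were the 6 members, up to 2 largest rises and 2 largest falls among called genes of each list, the 3 genes most like each member, *Cdkn2a* and the 3 most abundant short mRNAs. *Acta2*, *Actg2*, *Dstn* and other relatives of the members were named outside that rule, after their values were seen. Over 10995 to 11011 genes, equally numbered replicates of an assay did not deviate together between groups (correlations of -0.03 to 0.03). The ratio of *Tmsb10* to *Tmsb4x* reads was nonetheless higher in replicate 1 in every group and assay, so a pairing is not excluded. Sequence windows were computed in Python 3.11.15.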

Additional observations from a re-analysis of the deposited data

Results flagged for a closer look

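The footprints of both actins differed between the ArfKO-shSCR MEFs and WT-shARF-labelled libraries, groups that share the same control. The difference was a log2 of 0.17 for *Actb* (standard error 0.03) and 0.17 for *Actg1* (standard error 0.03), in a direct test of one group against the other, and in both genes the 2 ArfKO-shSCR libraries lay above the 2 WT-shARF-labelled libraries. Without either WT-shARF replicate the test called 0 of the 6 members. The sum of 8 fibroblast markers in footprints was lower in ArfKO-shSCR MEFs (36692 to 36806 CPM) than in WT-shARF-labelled libraries (52807 to 54334 CPM), and its part in the difference was not tested. A sum follows its most abundant genes and does not show that all 8 markers were lower.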

How the results depend on the processing

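With all libraries kept, 426 of 432 values that compare a member between groups kept their direction and side of the threshold under the other settings. These include the values of *Tmsb10* in ArfKO-shSCR against WT-shSCR MEFs, which guided the choice and are no support. Most of the 432 values belong to changes that had not been called, so keeping their side of the threshold says little. All these settings also use the same libraries. DESeq2 called 1 member instead of 2 for footprints in ArfKO-shSCR against WT-shSCR MEFs and 1 instead of 0 for TE in WT-shARF-labelled libraries against WT-shSCR. Signs changed for *Tmsb4x* footprints in ArfKO-shSCR MEFs with upper quartile factors (-0.011), for *Actb* footprints in WT-shARF-labelled libraries without a filter (0.0061), and for *Pfn1* TE in ArfKO-shSCR MEFs without a filter (0.077) or with all groups in one fit (0.013). The cause was not tested. Without a filter the median TE change of all genes in ArfKO-shSCR MEFs moved from -0.04 to 0.07. Over all genes DESeq2 called 62 higher and 13 lower for TE in ArfKO-shSCR MEFs against 10 and 12 by edgeR, and 47 and 3 against 4 and 0 in WT-shARF-labelled libraries. The replicate block changed no call of a tested member. It gave *Tmsb10* TE changes of 0.83 in ArfKO-shSCR MEFs, a description, and 0.55 in WT-shARF-labelled libraries (adjusted p = 0.14, edgeR). Each replicate was also left out in turn, with the lone sample assumed to vary like the other group. In ArfKO-shSCR against WT-shSCR MEFs the log2 change of *Tmsb10*, a description, stayed at 0.81 to 0.91 for TE and -0.84 to -0.65 for RNA. In WT-shARF-labelled libraries against WT-shSCR its RNA change was -0.69 to -0.48. Calls of tested members that were lost or gained in these fits are given with each gene above. Log2 changes whose sign turned in those fits, in ArfKO-shSCR against WT-shSCR MEFs, were *Cfl1* RNA (-0.13 to 0.0044), *Tmsb4x* footprints (-0.19 to 0.30) and *Pfn1* TE (-0.17 to 0.078). In WT-shARF-labelled libraries against WT-shSCR they were *Actg1* RNA (-0.31 to 0.0024), footprints of *Tmsb4x* (-0.32 to 0.18), *Pfn1* (-0.0091 to 0.12), *Actb* (-0.069 to 0.062) and *Actg1* (-0.044 to 0.017), and *Actg1* TE (-0.0054 to 0.31). In ArfKO-shSCR MEFs against WT-shARF-labelled libraries they were RNA of *Tmsb4x* (-0.13 to 0.10) and *Actg1* (-0.085 to 0.23), footprints of *Tmsb4x* (-0.012 to 0.22) and *Cfl1* (-0.044 to 0.025), and TE of *Actb* (-0.14 to 0.017) and *Actg1* (-0.043 to 0.24). None of those 15 values had passed the test with all libraries. Depth limits *Tmsb10* RNA most, with 443 reads in its lowest library.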
